A study of Mus musculus with 12 samples.

Results

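Oxysterols are oxygenated forms of cholesterol that macrophages use as signals, and 5 genes for their synthesis, breakdown and sensing are described here. They are Ch25h, Cyp27a1, Cyp7b1, Hsd3b7 and Gpr183, found by gene symbol among the 47729 genes of the count table. All 5 passed the filter on low counts, as did 15232 genes in all. The cells were peritoneal macrophages of C57BL/6 mice that adhered to the well, kept for 24 h in culture. In the first group, mice had received IL4c, a complex of the cytokine IL-4 (5 ug) with an antibody against it (25 ug) that prolongs its action, in 2 injections with collection 2 days after the last, and the cells were cultured with SPARC at 20 ug/ml. In the second group, the same IL4c macrophages were left untreated. In the third group, mice had received 3% thioglycollate (TG), an irritant that recruits monocytes to the peritoneum, once 4 days before collection, and the cells were cultured with SPARC at 20 ug/ml. In the fourth group, the same TG macrophages were left untreated. SPARC is a secreted glycoprotein of the extracellular matrix, and no control protein is named for it. Each group had 3 libraries of polyA RNA, numbered 1 to 3. No label states whether the libraries of a group come from different mice. The p-values therefore reflect only the spread among the libraries at hand, which may be technical.

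Cholesterol 25-hydroxylase, the product of Ch25h, converts cholesterol to 25-hydroxycholesterol and is known as an interferon-inducible enzyme of macrophages. This product holds the sterol-sensing protein SCAP in the endoplasmic reticulum through INSIG proteins, which lowers the activity of the transcription factor SREBP2 on the genes of cholesterol synthesis. It is also a ligand of the liver X receptors (LXR), which switch on genes of cholesterol export. CYP27A1 makes another side-chain oxysterol in mitochondria, CYP7B1 adds a hydroxyl group to the sterol ring, and HSD3B7 oxidises the product further. The steps of CH25H and CYP7B1 together make the ligand of GPR183 (also called EBI2), a receptor that guides the migration of B cells, dendritic cells and other leukocytes, and HSD3B7 inactivates that ligand.

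The 5 genes are protein coding and lie on 5 chromosomes in GRCm38 (GENCODE M21). The identifiers are those of the deposited counts. In GENCODE M21, which gave the positions, Ch25h is ENSMUSG00000050370.5 and Gpr183 is ENSMUSG00000051212.8. Ch25h (ENSMUSG00000050370.4) is a single exon at chr19:34473778-34475164 on the minus strand. Cyp27a1 (ENSMUSG00000026170.6) is at chr1:74713574-74737892 on the plus strand. Cyp7b1 (ENSMUSG00000039519.6) is at chr3:18071950-18243338 on the minus strand. Hsd3b7 (ENSMUSG00000042289.11) is at chr7:127800604-127803802 on the plus strand. Gpr183 (ENSMUSG00000051212.7) is at chr14:121952551-121965195 on the minus strand.

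Promoters are shown for the 3 members that differed most with SPARC and for Hmgcs1, a gene of cholesterol synthesis set beside them, because these genes moved in different directions in the same wells. Each is the 250 bases before the RefSeq start in GRCm38.p6, written 5′ to 3′ along the gene. The RefSeq promoter table used here matched 4 of the 5 members, all but Cyp7b1. Capitals mark the letters that matched a searched motif.
Ch25h, chr19:34475149-34475398, minus strand: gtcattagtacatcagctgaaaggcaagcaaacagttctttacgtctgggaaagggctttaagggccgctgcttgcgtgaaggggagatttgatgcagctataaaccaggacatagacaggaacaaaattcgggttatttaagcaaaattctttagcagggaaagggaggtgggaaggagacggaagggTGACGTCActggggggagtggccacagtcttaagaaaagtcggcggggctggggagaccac
Cyp27a1, chr1:74713285-74713534, plus strand: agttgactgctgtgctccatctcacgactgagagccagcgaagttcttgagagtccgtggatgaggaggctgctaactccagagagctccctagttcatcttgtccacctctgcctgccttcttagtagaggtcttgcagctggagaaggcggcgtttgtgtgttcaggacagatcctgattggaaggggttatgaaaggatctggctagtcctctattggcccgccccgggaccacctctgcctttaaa
Gpr183, chr14:121965194-121965443, minus strand: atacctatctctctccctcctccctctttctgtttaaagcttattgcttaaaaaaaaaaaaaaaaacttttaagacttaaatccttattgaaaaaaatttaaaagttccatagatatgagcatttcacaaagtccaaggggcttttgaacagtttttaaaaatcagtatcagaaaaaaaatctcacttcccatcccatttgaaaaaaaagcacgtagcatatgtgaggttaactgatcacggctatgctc
Hmgcs1, chr13:119690101-119690350, plus strand: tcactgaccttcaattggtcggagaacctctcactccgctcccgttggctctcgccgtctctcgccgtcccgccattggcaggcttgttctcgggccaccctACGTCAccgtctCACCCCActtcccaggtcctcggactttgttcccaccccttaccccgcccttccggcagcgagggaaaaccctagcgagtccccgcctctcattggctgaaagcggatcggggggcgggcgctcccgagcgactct
In the Ch25h window the capitals cover 2 overlapping matches, 1 on each strand, to TGACGT, the core of the cAMP response element, 61 to 54 bases before the start. That motif was chosen after the Ch25h sequence had been read, and 6.47% of 32851 mouse promoters of the same length hold it on either strand. The Hmgcs1 window holds CACCCCA, a core of the sterol regulatory element, 136 to 130 bases before the start, a motif present in 6.68% of promoters, and TGACGT on the reverse strand. The window of Hsd3b7, not printed, holds 1 match to TTCNNNGAA, a STAT dimer element present in 7.02% of promoters, 21 to 13 bases before the start. The letters of an interferon-stimulated response element core (in 2.98% of promoters), an NF-kB type site (1.41%) and a STAT6-type element (5.85%) were also searched on both strands and were not found in the members' windows. All matches are to letters alone, and the STAT motifs can overlap each other in a sequence.

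Depth was 31501941 to 42288785 estimated counts per library, so that 3 counts correspond to 0.0707 to 0.0974 counts scaled to library size (CPM). The macrophage markers were abundant in all groups. The pair of TG libraries numbered 1 stood apart from the rest on the third principal component, at 81.7 with SPARC and 82.4 untreated, where the other 10 libraries lay between -30.4 and 0. In that pair the summed level of 8 T cell markers was 37.2 CPM with SPARC and 35.6 CPM untreated, against 4.44 to 5.12 CPM in TG replicates 2 and 3. Results that rest on these libraries are given with and without them.

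Ch25h rose with SPARC in IL4c macrophages, and all 3 of its SPARC libraries lay above all 3 untreated libraries in both injections. With SPARC the IL4c libraries held 97.3, 105 and 169 CPM of Ch25h, against 0.487, 0.0605 and 6.07 CPM in untreated IL4c macrophages. The SPARC libraries were within a narrow range relative to their level, and among the untreated ones replicate 3 was far the highest. With SPARC the TG libraries held 36.8, 1.12 and 1.56 CPM, against 0.189, 0.235 and 0.0263 CPM in untreated TG macrophages. Replicate 1 was far above the other 2 SPARC libraries, and the lowest SPARC library was still above the highest untreated one. Untreated TG libraries had 8, 9 and 1 counts of Ch25h and untreated IL4c libraries had 15, 2 and 228, so 5 of the 6 untreated libraries had 15 counts or fewer.

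**Figure D1:**
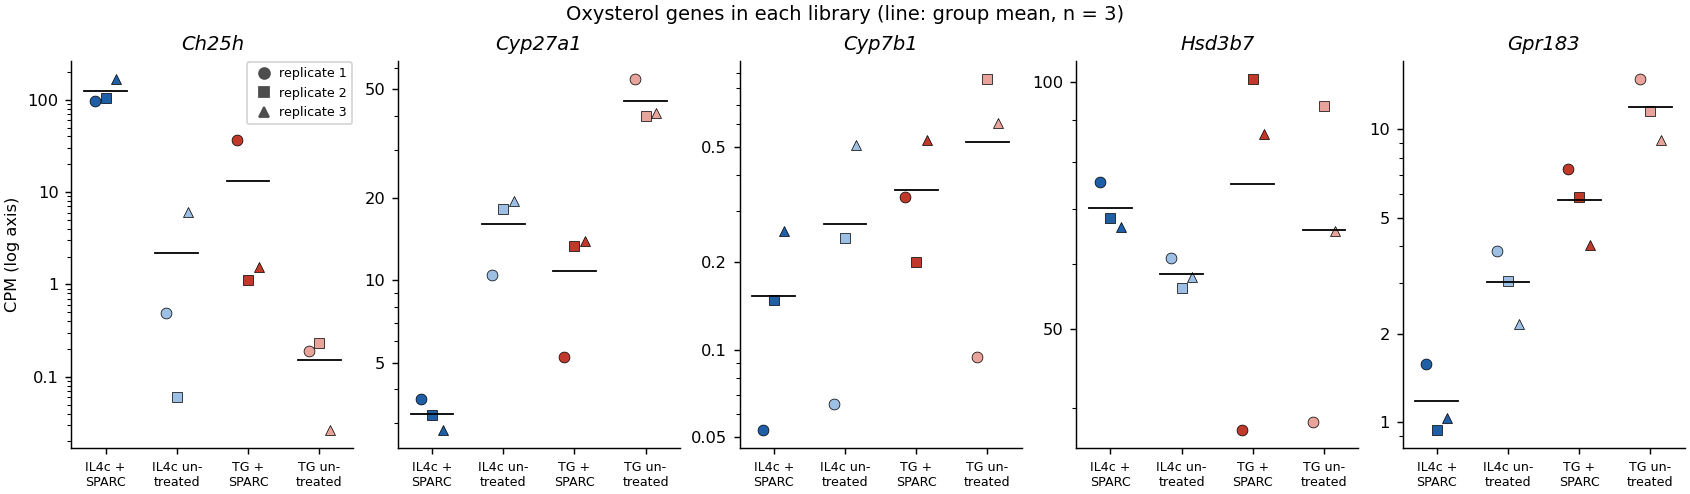
Level of each of the 5 genes in every library, in CPM on a log axis whose range differs between genes, with the group mean as a line (n = 3) and the replicate number as the symbol. Ch25h in IL4c macrophages with SPARC sits between 97.3 and 169 CPM, and Cyp27a1 and Gpr183 are lower with SPARC than untreated in both injections.

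The fitted log2 fold change of Ch25h was 5.78 ± 1.58 (SE) in IL4c macrophages, with an adjusted p of 0.0223 in the quasi-likelihood test of edgeR over all genes. In TG macrophages it was 6.41 ± 1.89 with an adjusted p of 0.0564, which missed the threshold of 0.05. Within the same replicate number, Ch25h in IL4c macrophages was 200-fold (95% exact counting interval 121 to 358), 1740-fold (482 to 14400) and 27.9-fold (24.4 to 32.0) higher with SPARC. In TG macrophages the ratios were 195 (98.7 to 453), 4.77 (2.27 to 11.2) and 59.3 (10.2 to 2390). The intervals cover counting error only, and the ratio was above 1 in all 6 pairs. The replicate numbers paired the libraries within an injection, and with the number as a block the TG value was 6.21 with an adjusted p of 0.0222. It also passed with DESeq2 (6.44, adjusted p = 0.000501), with the 5 CPM filter (adjusted p = 0.0469) and without the IL4c pair numbered 3 (adjusted p = 0.0477). The TG value rested on the first SPARC library: it was 3.16 (adjusted p = 0.238) without TG SPARC replicate 1 and 3.34 (adjusted p = 0.324) without both TG libraries numbered 1. It passed without untreated IL4c replicate 3 (adjusted p = 0.0375). That library is in neither compared group and enters through the shared filter, scaling and estimate of spread. The IL4c call was lost without untreated IL4c replicate 1 (5.32, adjusted p = 0.0775) or replicate 2 (5.22, adjusted p = 0.0698), and the estimate was 8.84 (adjusted p = 0.0136) without untreated replicate 3.

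Cyp27a1, the mitochondrial sterol 27-hydroxylase, fell with SPARC in both injections. It stood at 3.67, 3.21 and 2.83 CPM in IL4c macrophages with SPARC, against 10.5, 18.3 and 19.6 CPM in untreated IL4c macrophages. It stood at 5.27, 13.4 and 13.9 CPM in TG macrophages with SPARC, against 54.7, 39.9 and 40.8 CPM in untreated TG macrophages. The groups did not overlap in either injection, and in the TG pair numbered 1 the SPARC library was the lowest and the untreated library the highest of its group. The fall was -2.32 ± 0.37 (adjusted p = 0.00162) in IL4c macrophages and -2.06 ± 0.36 (adjusted p = 0.00739) in TG macrophages. Within the same number the untreated level was 2.86, 5.70 and 6.94 times that with SPARC in IL4c macrophages and 10.4, 2.98 and 2.94 times in TG macrophages. Both calls held in all 12 fits that each left out 1 library. Without both TG libraries numbered 1 the TG fall was -1.54 (adjusted p = 0.00583). With the TG groups fitted alone it was -2.04 and did not pass (adjusted p = 0.0598). The summed level of 7 large resident macrophage markers was also lower with SPARC, at 381 to 597 CPM against 790 to 996 CPM untreated in IL4c macrophages and at 197 to 374 against 358 to 589 CPM in TG macrophages. In IL4c macrophages the sum was carried by F5, Selp, Cd9 and Adgre4, while Gata6 averaged 37.8 CPM with SPARC against 37.1 CPM untreated, Timd4 21.2 against 22.5 CPM and Icam2 49.5 against 25.2 CPM. None of the 7 passed the test in either injection and none was at 0 in any group, and their part in the Cyp27a1 result was not tested. The 7 general macrophage markers summed to 9830 to 16100 CPM with SPARC against 17600 to 25600 CPM untreated in IL4c macrophages, and to 27900 to 29400 against 21500 to 33500 CPM in TG macrophages. The lower IL4c sum was that of Lyz2, which averaged 6620 CPM with SPARC against 16100 CPM untreated and fell (adjusted p = 0.0206). Of the other 6 in IL4c macrophages, Fcgr1 rose, Mertk fell and 4 did not pass, with Adgre1 at 2720 against 2310 CPM and Csf1r at 1360 against 1370 CPM. In TG macrophages 0 of the 7 passed. In bulk RNA, fewer cells of a type and less RNA per cell cannot be told apart.

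Hsd3b7, which encodes the enzyme that oxidises ring-hydroxylated oxysterols, was abundant in every group, and no change with SPARC passed the test. It measured 75.6, 68.3 and 66.6 CPM in IL4c macrophages with SPARC, against 61.0, 56.1 and 57.8 CPM untreated. The IL4c groups did not overlap, and the difference of 0.27 ± 0.36 did not pass (adjusted p = 0.62). It passed with the replicate number as a block (0.27, adjusted p = 0.0347) and with the IL4c groups fitted alone (0.28, adjusted p = 0.0273). Hsd3b7 measured 37.6, 101 and 86.5 CPM in TG macrophages with SPARC, against 38.5, 93.6 and 65.9 CPM untreated. Here the groups overlapped and the pair numbered 1 was low in both treatments. The TG difference of 0.19 ± 0.36 (adjusted p = 0.798) turned to -0.07 without untreated TG replicate 1 and to -0.08 without TG SPARC replicate 2.

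Cyp7b1, the ring hydroxylase between Ch25h and the GPR183 ligand, was barely detected. It had 2, 6 and 10 counts in IL4c macrophages with SPARC, against 2, 8 and 19 counts untreated. It had 11, 7 and 18 counts in TG macrophages with SPARC, against 4, 33 and 23 counts untreated. The groups overlapped in both injections. The differences were -0.83 ± 0.90 (adjusted p = 0.536) in IL4c macrophages and -0.54 ± 0.83 (adjusted p = 0.739) in TG macrophages, and the TG value turned to 0.04 without untreated TG replicate 2. Differences of the size of these errors, or larger, could be missed at this depth.

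Gpr183, the receptor, fell with SPARC in IL4c macrophages and separated the TG groups without passing the test. It stood at 1.58, 0.938 and 1.03 CPM in IL4c macrophages with SPARC, against 3.83, 3.03 and 2.16 CPM untreated. It stood at 7.31, 5.86 and 4.03 CPM in TG macrophages with SPARC, against 14.9, 11.6 and 9.17 CPM untreated. All SPARC libraries were below all untreated libraries of their injection, and in both treatments the TG libraries were above the IL4c libraries. The difference was -1.34 ± 0.32 (adjusted p = 0.0115) in IL4c macrophages and -1.05 ± 0.30 (adjusted p = 0.0514) in TG macrophages. Within the same number the untreated level was 2.42, 3.23 and 2.10 times that with SPARC in IL4c macrophages and 2.04, 1.98 and 2.28 times in TG macrophages. With the replicate number as a block the TG value was -1.06 and passed (adjusted p = 0.00156). It also passed with DESeq2 (-1.05, adjusted p = 0.00755), limma-voom (adjusted p = 0.0254), RLE (0.0483) or total-count scaling (0.0484), the 5 CPM filter (0.0406), log2(FPKM + 1) (0.0236) and log2(FPKM + 0.1) (0.0462). The same was seen without IL4c SPARC replicate 1 (adjusted p = 0.0467) and without untreated IL4c replicate 3 (adjusted p = 0.0489), and it was -1.05 without both TG libraries numbered 1 (adjusted p = 0.0668). The IL4c call held with any 1 library left out and was lost on log2(FPKM + 1) values, which compress low levels (-0.52, adjusted p = 0.0765, and 0.128 without filter).

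Gpr183 is known from B cells, and the summed B cell markers were also lower with SPARC. The 10 markers, all detected in every group, summed to 96.9, 80.7 and 51.1 CPM in IL4c macrophages with SPARC, against 228, 169 and 99.5 CPM untreated. They summed to 596, 131 and 133 CPM in TG macrophages with SPARC, against 1050, 181 and 178 CPM untreated. The sum was lower with SPARC in all 6 pairs. Of the 10 markers, 1 fell and 9 did not pass in IL4c macrophages, and 0 passed in TG macrophages. Of all tested genes, 27.8% and 11.3% were called. In untreated TG replicate 1, where the markers summed to 1050 CPM, Gpr183 was at 14.9 CPM, against 11.6 and 9.17 CPM in replicates 2 and 3. The part of these cells in the Gpr183 result was not tested. The dendritic cell markers, 5 of 7 tested, summed to 8.15 to 17.6 CPM with SPARC against 13.9 to 41.7 CPM untreated in IL4c macrophages, and to 17.4 to 80.2 against 11.9 to 45.9 CPM in TG macrophages. Most of the TG sum was Ccr7, at 30 CPM with SPARC against 16.0 CPM untreated, which did not pass (adjusted p = 0.518). The 1 dendritic cell marker that passed was Cd209a, which fell in both injections, to 0.255 CPM with SPARC against 19.2 CPM untreated in IL4c macrophages (adjusted p = 0.00166) and to 0.00957 against 1.86 CPM in TG macrophages (adjusted p = 0.0125). The part of dendritic cells in the Gpr183 result was not tested.

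**Figure D2:**
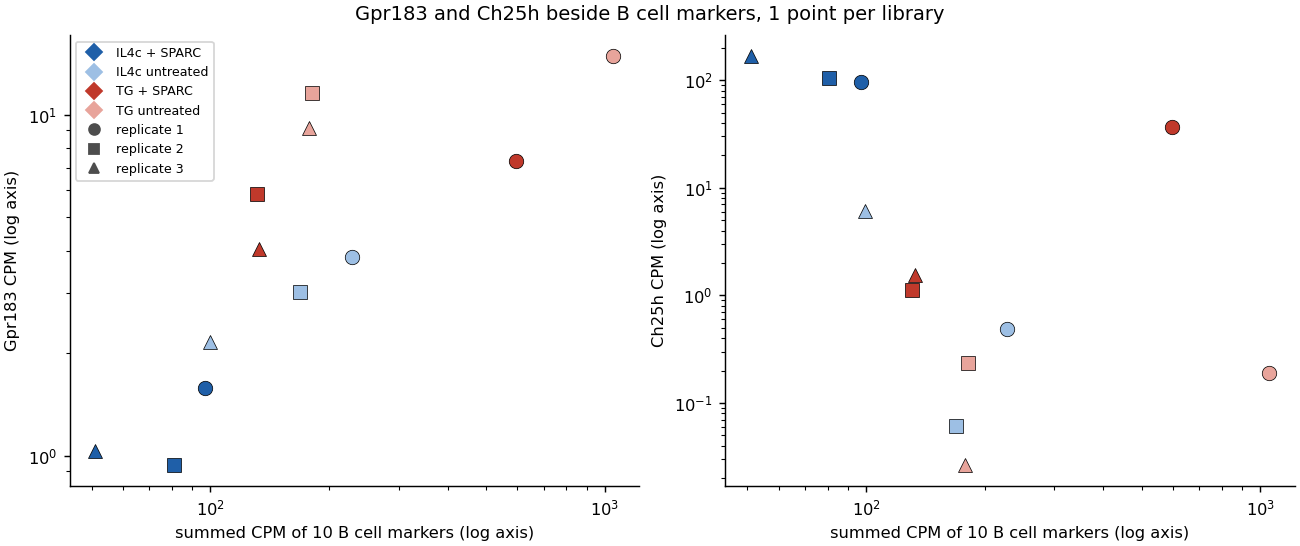
Gpr183 (left) and Ch25h (right) against the summed level of 10 B cell markers, both in CPM on log axes, with 1 point per library, the group as the colour and the replicate number as the symbol. The TG libraries numbered 1 lie far to the right, at 596 CPM with SPARC and 1050 CPM untreated, with Ch25h at 36.8 and 0.189 CPM.

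The library with the highest Ch25h among TG macrophages, SPARC replicate 1, was also the TG SPARC library with the most B cell, T cell and dendritic cell markers. It had 596 CPM of B cell, 37.2 CPM of T cell and 80.2 CPM of dendritic cell markers, against 1050, 35.6 and 45.9 CPM in its untreated partner, where Ch25h was at 0.189 CPM. The part of these cells in the Ch25h level was not tested. The summed level of 8 neutrophil markers was higher with SPARC, as Ch25h was. It was 26.9 to 41.4 CPM against 6.93 to 9.72 CPM untreated in IL4c macrophages. In TG macrophages it was 27.8 to 53.2 against 6.93 to 11.7 CPM. That sum was almost all S100a8. Only S100a8 and Camp of the 8 could be tested. Elane and Ltf, with at most 12 and 10 counts in any library, averaged lower with SPARC in both injections. Elane averaged 0.119 against 0.248 CPM in IL4c macrophages and 0.0191 against 0.0838 CPM in TG macrophages. Ltf averaged 0.0515 against 0.136 CPM in IL4c macrophages and 0 against 0.173 CPM in TG macrophages. S100a8 rose in both injections (2.07 ± 0.29 in each, adjusted p = 0.000965 in IL4c and 0.00354 in TG macrophages), and Camp rose in IL4c macrophages (adjusted p = 0.0103) and did not pass in TG macrophages (adjusted p = 0.0579). S100a9 and Ngp had at most 3 counts and Ly6g at most 1 count in any library, and the part of neutrophils in the Ch25h result was not tested.

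By these tests 3 of the 5 genes were called with SPARC in IL4c macrophages, against 27.8% of all 15232 tested genes, and 1 of 5 in TG macrophages, against 11.3% of tested genes. The number of members in TG macrophages rested on narrow margins, being 3 with the replicate block or DESeq2 and 0 with the TG groups fitted alone. It was also 3 without untreated IL4c replicate 3 and 2 without IL4c SPARC replicate 1. In IL4c macrophages 4 of the 5 genes had no overlap between SPARC and untreated libraries, against 50.4% of tested genes, and in TG macrophages 3 of 5, against 30.4%. The median log2 fold change was -0.83 for the members and 0.00 for all tested genes in IL4c macrophages, and -0.54 and -0.03 in TG macrophages. In both injections the members' median is the value of Cyp7b1, whose change did not pass.

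**Figure D3:**
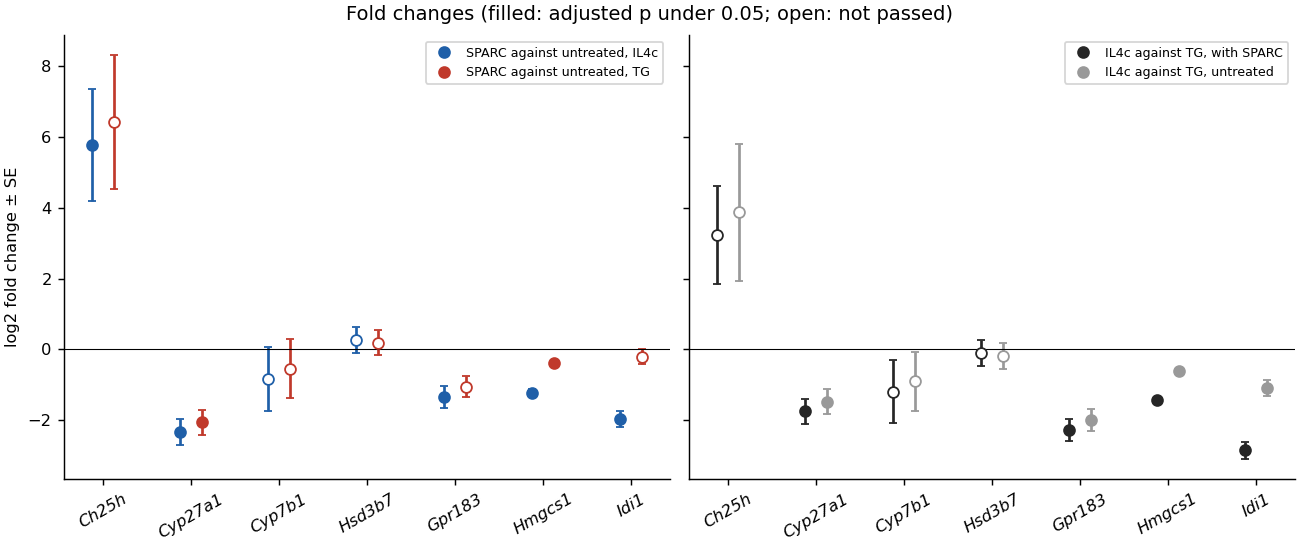
log2 fold change with its SE for the 5 genes and for Hmgcs1 and Idi1, SPARC over untreated on the left and IL4c over TG on the right. Filled points have an adjusted p under 0.05 and open points do not. Ch25h lies between 3.24 and 6.41 in all 4 comparisons and is filled once, while Cyp27a1 is filled in all 4.

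Levels per transcript length (FPKM, as the authors deposited it) give the order of the genes within a group. In IL4c macrophages with SPARC, Ch25h was highest at 94.9 ± 30.5 FPKM (SD, n = 3), above Hsd3b7 at 40.9 ± 3.20, Cyp27a1 at 2.54 ± 0.385, Gpr183 at 0.40 ± 0.123 and Cyp7b1 at 0.07 ± 0.05 FPKM. No neighbours in that order overlapped. In untreated IL4c macrophages Hsd3b7 led at 33.9 ± 1.06 FPKM, Cyp27a1 followed at 12.5 ± 4.10, and Ch25h at 1.70 ± 2.58 overlapped with both Gpr183 at 1.02 ± 0.285 and Cyp7b1 at 0.127 ± 0.106 FPKM. In TG macrophages with SPARC, Hsd3b7 was at 45.3 ± 19.0 FPKM and Ch25h at 10.5 ± 16.4, whose libraries ran from 0.87 to 29.5 FPKM and overlapped with Hsd3b7, with Cyp27a1 at 8.50 ± 3.96 and with Gpr183 at 2.01 ± 0.605 FPKM. Cyp7b1 was below them all at 0.17 ± 0.0755 FPKM. In untreated TG macrophages Hsd3b7 at 41.2 ± 16.4 and Cyp27a1 at 37.5 ± 9.11 FPKM overlapped at the top, Gpr183 stood apart at 4.38 ± 1.24, and Cyp7b1 at 0.257 ± 0.189 and Ch25h at 0.123 ± 0.0907 FPKM overlapped at the bottom. By these means Ch25h was the first of the 5 genes in IL4c macrophages with SPARC and the last in untreated TG macrophages, and Hsd3b7 was first or second in every group.

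**Figure D4:**
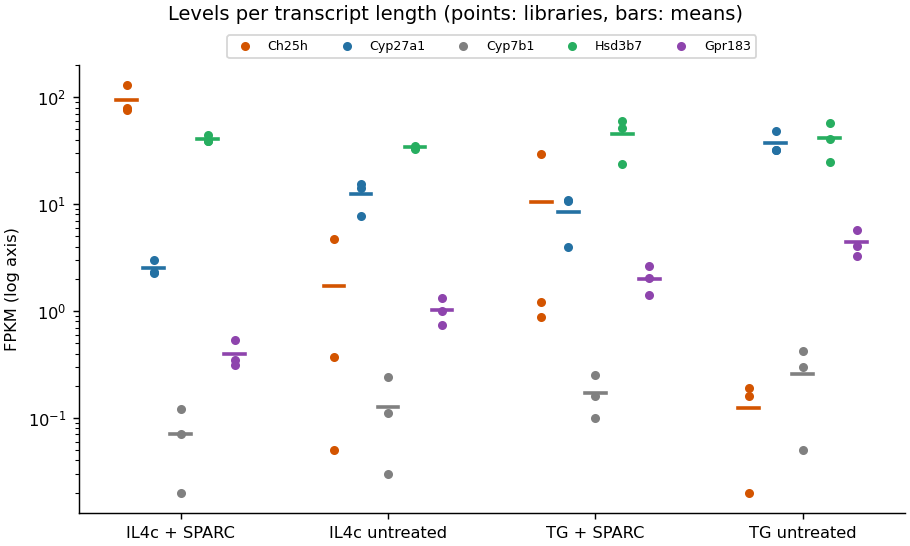
Level per transcript length of the 5 genes in FPKM on a log axis, with 1 point per library and a bar at the group mean (n = 3). Ch25h (orange) is the highest gene in IL4c macrophages with SPARC at 94.9 FPKM and the lowest in untreated TG macrophages at 0.123 FPKM, while Hsd3b7 (green) has means between 33.9 and 45.3 FPKM.

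Between injections, Cyp27a1 and Gpr183 were lower in IL4c macrophages than in TG macrophages, with and without SPARC. With SPARC, 2 of the 5 members were called, against 21% of all tested genes, and 3 of 5 did not overlap, against 41.4%. In untreated wells 2 of 5 were called, also against 21%, and 2 of 5 did not overlap, against 39%. Cyp27a1 stood at 3.23 ± 0.419 CPM in IL4c and 10.8 ± 4.83 CPM in TG macrophages with SPARC, a difference of -1.75 ± 0.36 (adjusted p = 0.00893), and at 16.1 ± 4.94 CPM in IL4c and 45.1 ± 8.28 CPM in TG macrophages untreated, a difference of -1.48 ± 0.35 (adjusted p = 0.0164). The untreated call was lost without untreated IL4c replicate 1 (-1.24, adjusted p = 0.063). Gpr183 stood at 1.18 ± 0.349 CPM in IL4c and 5.73 ± 1.65 CPM in TG macrophages with SPARC, a difference of -2.27 ± 0.32 (adjusted p = 0.0015), and at 3.00 ± 0.837 CPM in IL4c and 11.9 ± 2.90 CPM in TG macrophages untreated, a difference of -1.99 ± 0.31 (adjusted p = 0.00348). Both Gpr183 calls held with any 1 library left out. Ch25h was 3.24 ± 1.38 higher in IL4c macrophages with SPARC, with no overlap and no call (adjusted p = 0.121), and leaving out TG SPARC replicate 1 gave 6.52 (adjusted p = 0.00968), as did leaving out the whole TG pair numbered 1 (adjusted p = 0.00402). It also passed with limma-voom (4.94, adjusted p = 0.00679), on log2(FPKM + 1) values (4.21, adjusted p = 0.0129, and 0.0263 without filter) and on log2(FPKM + 0.1) values (4.78, adjusted p = 0.0356). In untreated wells its value of 3.87 ± 1.93 did not pass (adjusted p = 0.18), the groups overlapped, and it was 0.82 without untreated IL4c replicate 3 (adjusted p = 0.843). With DESeq2 the untreated value was 3.91 and passed (adjusted p = 0.0427). Hsd3b7 differed by -0.10 ± 0.36 (adjusted p = 0.87) with SPARC and -0.18 ± 0.36 (adjusted p = 0.756) untreated. Without both TG libraries numbered 1 those values were -0.43 (adjusted p = 0.0394) and -0.44 (adjusted p = 0.0341), while without TG SPARC replicate 2 the value with SPARC was 0.19, without TG SPARC replicate 3 it was 0.02, and without untreated TG replicate 2 the untreated value was 0.19. Cyp7b1 differed by -1.20 ± 0.89 (adjusted p = 0.361) with SPARC and -0.90 ± 0.84 (adjusted p = 0.474) untreated. With SPARC, the summed markers of mesothelial cells and fibroblasts were lower in IL4c macrophages, at 2.85 to 9.34 CPM against 26.4 to 212 CPM in TG macrophages. Untreated they overlapped, at 2.75 to 8.47 CPM in IL4c and 5.02 to 129 CPM in TG macrophages. Of the 6 tested, 4 were called lower in IL4c macrophages with SPARC and 2 untreated. The B cell markers were also lower with SPARC, at 51.1 to 96.9 CPM in IL4c and 131 to 596 CPM in TG macrophages, while untreated they overlapped, at 99.5 to 228 and 178 to 1050 CPM. Of the 10, 1 was called lower in IL4c macrophages in each treatment. The summed large resident macrophage markers were higher in IL4c macrophages. With SPARC they were at 381 to 597 CPM against 197 to 374 CPM in TG macrophages. Untreated they were at 790 to 996 against 358 to 589 CPM. Of the 7, 4 were called higher with SPARC and 3 untreated, and 0 were called lower. Cd9 averaged lower in IL4c macrophages, at 125 against 265 CPM in TG macrophages with SPARC and 250 against 399 CPM untreated. Adgre4 averaged 10.1 CPM in IL4c and 21.2 CPM in TG macrophages with SPARC, and 56.5 and 48.7 CPM untreated. The part of these cell types in the Cyp27a1, Gpr183 and Ch25h differences was not tested.

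The SPARC change was not shown to differ between injections for any of the 5 genes. The difference of the changes, IL4c minus TG, was -0.63 ± 2.38 for Ch25h (adjusted p = 0.975), -0.26 ± 0.49 for Cyp27a1 (adjusted p = 0.933) and -0.29 ± 0.43 for Gpr183 (adjusted p = 0.909). It was 0.08 ± 0.50 for Hsd3b7 (adjusted p = 0.984) and -0.29 ± 1.20 for Cyp7b1 (adjusted p = 0.977). The test called 0 of the 5 and 0% of all tested genes, with 1612 genes at an unadjusted p under 0.05, while limma-voom called 0 genes, DESeq2 364 and the replicate block 472. For Ch25h the error spans changes in either direction, and leaving out TG SPARC replicate 1 gave 2.61, leaving out untreated IL4c replicate 3 gave 2.43. The call of Ch25h in IL4c and not in TG macrophages is therefore no measured difference between them, and the same holds for Gpr183.

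Other enzymes of oxysterol and sterol side-chain metabolism were sparse in these cells: 9 of 17 listed genes could be tested. In IL4c macrophages with SPARC 1 rose, 3 fell and 5 did not pass, with a median of -0.47. The fallers were Dhcr7, the last enzyme of cholesterol synthesis, by 1.24 ± 0.31 on the log2 scale to 12.7 CPM, against 30 CPM untreated (adjusted p = 0.0153), the sterol carrier gene Scp2 at -0.39 ± 0.10 (adjusted p = 0.0148), and the peroxisomal enzyme gene Hsd17b4 at -0.47 ± 0.13 (adjusted p = 0.0209). Without IL4c SPARC replicate 1 no gene of this list fell, without replicate 2 there was 1 and without replicate 3 there were 2. In TG macrophages with SPARC 1 rose, 0 fell and 8 did not pass, with a median of -0.19. The 4 of 9 called in IL4c and 1 of 9 in TG macrophages stand against 27.8% and 11.3% of all tested genes, and the TG share is near the background. The gene that rose in both injections was Hsd11b1, which encodes a steroid reductase that also acts on ring-oxidised oxysterols and which is named after its values were seen. It averaged 3.92 CPM in IL4c macrophages with SPARC against 0.597 CPM untreated (2.71 ± 0.78, adjusted p = 0.0272), and 4.06 against 0.595 CPM in TG macrophages (2.75 ± 0.78, adjusted p = 0.0482). No gene of the list rose in TG macrophages when any single library but untreated TG replicate 1 was left out, and none rose in IL4c macrophages without untreated IL4c replicate 2 or 3 or any 1 IL4c SPARC library. Cyp7a1, which opens bile acid synthesis in liver, had at most 1 count.

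Of the genes for oxysterol receptors and binding proteins, 24 of 27 were tested. In IL4c macrophages with SPARC 5 rose, 6 fell and 13 did not pass, with a median of -0.25, and 3 fell without untreated replicate 2 or SPARC replicate 2, while 10 fell without the TG pair numbered 1. In TG macrophages with SPARC 1 rose, 1 fell and 22 did not pass, with a median of -0.05, and with the block 3 rose and 3 fell. Without untreated TG replicate 1 there were 2 that fell, and without TG SPARC replicate 1 there were 2 that rose. The 11 of 24 called in IL4c and 2 of 24 in TG macrophages are set against the same 27.8% and 11.3%. Osbpl3, a relative of the oxysterol-binding protein, rose in both injections, to 181 CPM with SPARC against 9.46 CPM untreated in IL4c macrophages (4.26 ± 0.51, adjusted p = 0.000402) and to 151 against 26.3 CPM in TG macrophages (2.52 ± 0.47, adjusted p = 0.0101). Osbpl11, another relative, fell in both, by 1.26 ± 0.14 in IL4c macrophages (adjusted p = 0.000287) and by 0.73 ± 0.14 in TG macrophages (adjusted p = 0.0116). Nr1h3, the gene of LXR alpha, rose to 77.0 CPM with SPARC against 15.5 CPM untreated in IL4c macrophages (2.31 ± 0.28, adjusted p = 0.000415), while its TG difference of 0.46 ± 0.27 did not pass (adjusted p = 0.309). Insig1, which encodes the retention protein that 25-hydroxycholesterol binds, fell to 29.2 CPM against 98.3 CPM in IL4c macrophages (-1.75 ± 0.21, adjusted p = 0.000396), and it is itself a SREBP2 target.

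LXR targets, 14 of 16 tested, were called 7 times in IL4c and 3 times in TG macrophages, against 27.8% and 11.3% of all tested genes. In IL4c macrophages with SPARC 6 rose, 1 fell and 7 did not pass, with a median of 0.61, and without TG SPARC replicate 1 there were 2 that fell, without its pair 3. In TG macrophages 3 rose, 0 fell and 11 did not pass, with a median of 0.04, and with the block 4 rose and 3 fell. Scd2, a fatty acid desaturase gene, rose to 264 CPM with SPARC against 27.9 CPM untreated in IL4c macrophages (3.24 ± 0.36, adjusted p = 0.000294) and to 170 against 49.6 CPM in TG macrophages (1.78 ± 0.34, adjusted p = 0.0119). Abca1, the cholesterol exporter, rose by 0.99 ± 0.22 in IL4c macrophages (adjusted p = 0.00919) and by 1.05 ± 0.22 in TG macrophages (adjusted p = 0.0164). Srebf1 rose by 0.63 ± 0.10 in IL4c macrophages (adjusted p = 0.00167) and by 0.38 ± 0.10 in TG macrophages (adjusted p = 0.0379). The Srebf1 call in TG macrophages was lost in 6 fits that left out 1 library, with an adjusted p of 0.0507 to 0.0772. The libraries were untreated IL4c replicates 1 and 2, untreated TG replicates 2 and 3, and TG SPARC replicates 1 and 3. Arl4c rose by 1.44 ± 0.26 in IL4c macrophages (adjusted p = 0.00307). Not all targets were higher with SPARC. The libraries of Apoe, a lipid carrier gene, were at 154 to 288 CPM with SPARC against 471 to 1310 CPM untreated in IL4c macrophages. In TG macrophages they were at 3280 to 4800 against 7660 to 8920 CPM, which did not pass.

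The cholesterol synthesis genes Hmgcs1 and Idi1 were set beside Ch25h as context, since SREBP2 drives both. Hmgcs1 stood at 33.1, 30.9 and 34.3 CPM in IL4c macrophages with SPARC, against 78.2, 77.5 and 73.1 CPM untreated, and fell by 1.22 ± 0.09 on the log2 scale (adjusted p = 4.87e-05). Idi1 stood at 6.80, 5.58 and 6.40 CPM with SPARC, against 26.4, 26.8 and 20.1 CPM untreated, and fell by 1.96 ± 0.23 (adjusted p = 0.000336). These are the wells in which Ch25h stood between 97.3 and 169 CPM. In TG macrophages, where Ch25h reached 36.8 CPM in 1 SPARC library, Hmgcs1 stood at 79.2, 90.1 and 98.2 CPM with SPARC, against 121, 105 and 121 CPM untreated (-0.38 ± 0.09, adjusted p = 0.0283). Idi1 stood at 51.9, 41.1 and 42.2 CPM with SPARC, against 72.0, 39.5 and 44.3 CPM untreated, groups that overlapped (-0.21 ± 0.21, adjusted p = 0.605). TG SPARC replicate 1, with the highest Ch25h of the TG wells, had the lowest Hmgcs1 and the highest Idi1 of the TG SPARC wells. The relation of Ch25h to these genes was not tested. Without both TG libraries numbered 1, Hmgcs1 in TG macrophages was -0.24 (adjusted p = 0.102) and Idi1 0.01 (adjusted p = 0.969). The Hmgcs1 call in TG macrophages was lost in 7 of 12 fits that left out 1 library (adjusted p from 0.0576 to 0.118), namely IL4c SPARC replicate 1 or 3, any untreated TG library, or TG SPARC replicate 1 or 2. It was also lost without the low-count filter (adjusted p = 0.103), with the TG groups fitted alone (0.16) and without the IL4c pair numbered 3 (0.0795). Idi1 in TG macrophages was 0.10 without untreated TG replicate 1.

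Across the SREBP2 targets, 23 of 24 tested, 0 rose, 14 fell and 9 did not pass in IL4c macrophages with SPARC, with a median of -0.84. In TG macrophages 0 rose, 1 fell and 22 did not pass, with a median of 0.02. The 14 of 23 called in IL4c and 1 of 23 in TG macrophages stand against 27.8% and 11.3% of all tested genes. With the block 3 targets rose and 2 fell in TG macrophages, and without untreated TG replicate 1, or without its pair, there were 4 that rose and 0 that fell. In IL4c macrophages 1 target rose without untreated TG replicate 1 or 2, and 2 rose without the TG pair numbered 1. In TG macrophages 1 rose without untreated IL4c replicate 3. No target fell in TG macrophages without untreated replicate 2 or 3, TG SPARC replicate 1 or 2, or IL4c SPARC replicate 1 or 3. Stard4, a sterol transporter gene, fell by 1.82 ± 0.22 (adjusted p = 0.000396) and Msmo1, a methylsterol oxidase gene, by 0.98 ± 0.11 (adjusted p = 0.000276) in IL4c macrophages. The difference of the SPARC changes was -0.84 ± 0.13 for Hmgcs1 and -1.76 ± 0.31 for Idi1, and neither passed (adjusted p = 0.147 for both). The block called 472 of all 15232 tested genes for this difference. With it both genes passed (adjusted p = 0.0272 for Hmgcs1 and 0.0149 for Idi1), as did 10 of the 23 targets, all with the lower change in IL4c macrophages. Both also passed with DESeq2, with 12 targets, without untreated TG replicate 1, with 10 targets, and without the TG pair numbered 1, with 14 targets, and Hmgcs1 passed without TG SPARC replicate 1, with 2 targets. Neither passed in the other 10 fits that left out 1 library, nor with limma-voom. The targets were also lower in IL4c than in TG macrophages, 20 of 23 with SPARC and 10 of 23 untreated. In each treatment 21% of all tested genes were called. The untreated count of lower targets was 6 without untreated IL4c replicate 2. In the fits that left out 1 library, 0 to 2 targets were called higher in IL4c macrophages untreated and 0 to 1 with SPARC.

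**Figure D5:**
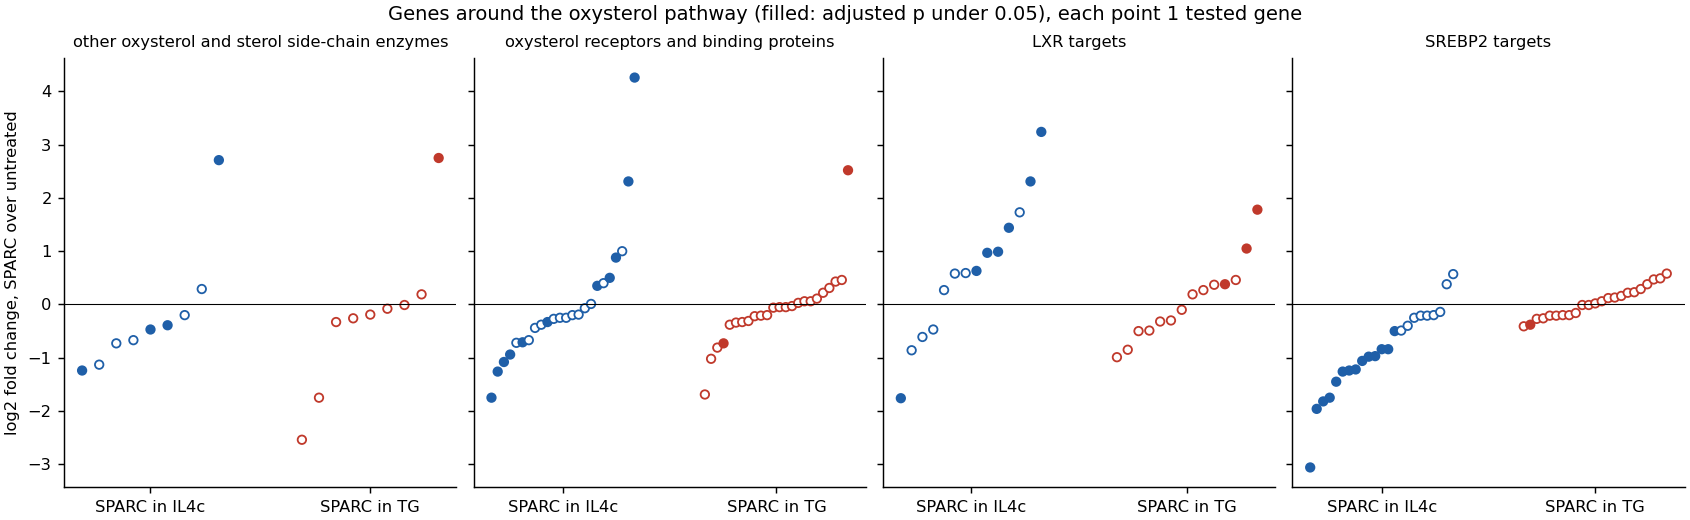
log2 fold change of SPARC over untreated for each tested gene of 4 lists around the pathway, IL4c macrophages in blue and TG macrophages in red, sorted within each list. Filled points have an adjusted p under 0.05, and 14 of 23 SREBP2 targets are filled below 0 in IL4c macrophages against 1 of 23 in TG macrophages. Of all tested genes, 27.8% were called in IL4c and 11.3% in TG macrophages, in either direction.

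The genes whose levels over the 12 libraries were most like each member were taken from 8274 or 8275 genes that averaged 10 CPM or more, by Pearson's r of log2(CPM + 0.5). For Ch25h they were Serf1 (r = 0.983), Bud31 (0.980), Antxr1 (0.979) and Ugt1a6a (0.977). For Cyp27a1 they were Arhgap17 (r = 0.989), Zfp760 (0.982), Pip4k2a (0.979) and Ehd4 (0.969). For Gpr183 they were Rsrc1 (r = 0.980), Cwc22 (0.971), Pds5b (0.967) and Tia1 (0.967). For Hsd3b7 they were Oit3 (r = 0.935), B3gnt3 (0.934), Gla (0.933) and Vim (0.917). For the sparse Cyp7b1 the first was Rit1 at 0.919, which at these counts is no finding. The points share 4 groups and their libraries, so these values describe a pattern of groups.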

How the data were processed

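PolyA RNA was sequenced from 12 libraries in 4 groups of 3. CASAVA, bcl2fastq 1.8.4, STAR and RSEM are listed, per the submitters' processing notes. Build, annotation and strand setting: not given in the sources used here. The authors deposited expected counts per gene, unscaled, of which 7.97% are not whole numbers, and FPKM values, scaled by the authors to gene length and library size. Of the gene identifiers, 98.9% match GENCODE M21 (GRCm38) when versions are ignored and 81.9% exactly.

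Counts were rounded and fitted in edgeR 4.0.16 (R 4.3.3) with the quasi-likelihood test, TMM scaling, robust dispersion and filterByExpr with a minimum count of 10. All 12 libraries in 4 groups gave 8 residual degrees of freedom and a common biological coefficient of variation of 0.308. A gene was called at a Benjamini-Hochberg adjusted p under 0.05 over 15232 genes. The SE was derived as |log2 fold change|/sqrt(F). CPM use TMM-scaled library sizes (factors 0.959 to 1.1). The fit was also run on counts simulated from its own estimates of spread, with changes put into the TG SPARC libraries only. The simulation held no pairs, and its outcome is not given here. No libraries of a group were copies (chi-square per degree of freedom at least 9.8). Every column of both tables was used.

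The results were recomputed with DESeq2 1.42.0, limma-voom (limma 3.58.1), RLE or total-count scaling, no filter, a filter of 5 CPM in 3 libraries, limma on log2(FPKM + 1) and log2(FPKM + 0.1) where 3 libraries reached 1 FPKM, no FPKM filter, the compared groups alone, the replicate number as a block, and libraries left out. Deviations from the group means correlated at 0.342 to 0.735 between libraries of the same number and injection in all 6 pairs, and at -0.659 to 0.507 between different numbers, so numbers were read as pairing libraries within an injection. Across injections the same numbers gave -0.178 to 0.25 and do not pair.

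The members, lists, markers and tests were chosen with earlier results of these data known. Named list genes are up to 4 called genes per list and comparison with the smallest p and a mean of at least 5 CPM, and 4 genes most like each member. One gene that this rule names is not reported here. Abca1 in IL4c macrophages, Nr1h3 in TG macrophages, Apoe with SPARC against untreated, Hsd11b1, Cyp7a1 and single markers fall outside that rule. Some genes stand in 2 lists, as Nr1h3 and Insig1 do, and 1 macrophage marker with 2 identifiers was left out.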

Additional observations from a re-analysis of the deposited data

How the results depend on the processing

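The fall of Cyp27a1 in IL4c macrophages and those of Hmgcs1 and Idi1 there were called under every alternative, and depth limits Cyp7b1 and untreated Ch25h. In TG macrophages 1 member was called. The count was 2 with RLE or total-count scaling, limma-voom, log2(FPKM + 1), log2(FPKM + 0.1) and without both IL4c libraries numbered 3, 3 with DESeq2, the 5 CPM filter and the replicate block, and 0 with the groups alone. Leaving out 1 library gave 1 to 3 members there, 2 to 3 for SPARC in IL4c macrophages, 2 to 3 for IL4c against TG with SPARC (4 without both TG libraries numbered 1) and 1 to 2 untreated. The cause of these shifts was not tested.

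Genes called with SPARC in TG macrophages numbered 1714, against 2632 with DESeq2, 1001 on FPKM without filter, 505 with the groups alone and 4165 with the block (737 to 2095 with 1 library left out). In IL4c macrophages they numbered 4237, against 6880 with the block, 6507 without the TG pair numbered 1 and 2679 without the IL4c pair numbered 3 (2507 to 5178). IL4c against TG untreated gave 3197, against 1631 with the groups alone and 6002 without the TG pair (1376 to 4562), and with SPARC 3196, against 5587 without that pair (1777 to 4293). The difference of the changes gave 0, against 2 with total counts or no filter, 3 with the 5 CPM filter or log2(FPKM + 0.1), 16 with log2(FPKM + 1), 38 without the FPKM filter, 364 with DESeq2, 472 with the block, 836 without the TG pair and 1 without both IL4c libraries numbered 3 (0 to 278). Of the TG calls 59.8% were higher with SPARC, against 44.7% with total counts. Of those for IL4c against TG untreated 48.4% were higher in IL4c macrophages, against 29.3% with total counts, which shifted the median of all genes to -0.16.

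Among single genes, the sign of uncalled values turned. The difference of the Ch25h changes was 2.55 with limma-voom, 3.37 with log2(FPKM + 1), with or without filter, 3.04 with log2(FPKM + 0.1), 0.17 with the replicate block, 2.41 without the TG pair and 2.17 without both IL4c libraries numbered 3 (-1.19 to 2.61 with 1 library left out). For Cyp27a1 it was 0.22 with log2(FPKM + 1), with or without filter, and 0.04 with log2(FPKM + 0.1), for Gpr183 0.31 with log2(FPKM + 1), with or without filter, and for Cyp7b1 0.02 on FPKM without filter and 0.13 without the TG pair (-0.87 to 0.52). For Hsd3b7 it ran from -0.29 to 0.35, its TG change from -0.08 to 0.56, its IL4c against TG difference from -0.44 to 0.19 untreated and from -0.43 to 0.19 with SPARC, with 0.02 under limma-voom. The TG change of Cyp7b1 ran from -1.04 to 0.04 and that of Idi1 from -0.33 to 0.10, with 0.01 without the TG pair. The block changed no other member's call than those given with the results.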

Other observations

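Soat2, Gramd1b and Apoe, among the genes with the smallest p in the lists of oxysterol receptors and binding proteins and of LXR targets, differed between the injections in both treatments. Soat2, which esterifies cholesterol, averaged 34.7 CPM in IL4c and 2.06 CPM in TG macrophages with SPARC (log2 fold change 4.07 ± 0.52, adjusted p = 0.00105), and 17.4 CPM in IL4c and 1.78 CPM in TG macrophages untreated (3.29 ± 0.50, adjusted p = 0.00324). Gramd1b, a carrier of cholesterol between membranes, was higher in IL4c macrophages by 1.32 ± 0.09 with SPARC (adjusted p = 6.37e-05) and by 0.93 ± 0.09 untreated (adjusted p = 0.000434). Apoe, an LXR target and lipid carrier, averaged 242 CPM in IL4c and 4110 CPM in TG macrophages with SPARC (-4.08 ± 0.41, adjusted p = 0.000348), and 824 CPM in IL4c and 8160 CPM in TG macrophages untreated (-3.31 ± 0.40, adjusted p = 0.00108). Of 24 tested oxysterol receptors and binding proteins, 3 were higher and 2 lower in IL4c macrophages with SPARC, and 6 higher and 3 lower untreated, against 21% of all tested genes called in either treatment. Of 14 tested LXR targets, 3 were higher and 1 lower with SPARC, and 2 higher and 2 lower untreated, against the same 21%. The shares with SPARC, 5 of 24 and 4 of 14, are near that background. With SPARC the LXR counts were 5 and 2 without IL4c SPARC replicate 3 or untreated TG replicate 1, and 5 receptors and binding proteins were higher without untreated TG replicate 1. Untreated, 1 LXR target was higher without untreated IL4c replicate 1 or 2 or untreated TG replicate 2 or 3. Untreated, 1 receptor or binding protein was lower without untreated IL4c replicate 1 or 2, IL4c SPARC replicate 2, untreated TG replicate 1 or 3, or TG SPARC replicate 2 or 3. Without both TG libraries numbered 1 there were 8 LXR targets higher and 2 lower with SPARC, 6 receptors and binding proteins higher and 6 lower with SPARC, and 10 higher and 4 lower untreated.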
